A study of Mus musculus with 10 samples.

Results

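The comparison described here set brains lacking both COP1 and cJun against control brains, with 2 RNA-seq libraries on each side, 4 of the 10 in the series, across all genes counted. The libraries came from mouse embryos at stage E18.5, as whole brains with the olfactory bulbs taken off. The control is labelled COP1 het control, so the animals it stands for are heterozygous for COP1 and not wild type. The double knockout is labelled COP1.cJun DKO (DKO below). The other genotypes are COP1 KO (KO), COP1.cJun.ETV1 TKO (TKO) and COP1.cJun.ETV1.ETV5 QKO (QKO), with 2 libraries each. KO carries the loss of COP1 that DKO shares, and is used here to show where DKO differs from it. The labels do not name the promoter, Cre line or cell type behind the deletions, the strain, the litter or how many brains went into a library. Libraries are numbered by accession, and the numbers pair nothing. Whether the 2 libraries of a genotype stem from separate animals is not stated, although in control and in DKO the sex-linked genes below differ between them. The p-values measure the spread between these libraries. Of 28059 gene identifiers in the files, 18671 passed a filter on low counts and were tested.

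COP1 is the substrate adaptor of a cullin-based ubiquitin ligase, which marks bound proteins for degradation. Its known substrates include cJun, a subunit of the AP-1 transcription factor encoded by Jun, and the PEA3 group of ETS factors encoded by Etv1, Etv4 and Etv5. COP1 acts on the proteins, so the transcripts measured here are not its direct substrates. In the late embryonic brain, radial glia have begun to give rise to astrocytes and to oligodendrocyte precursor cells (OPCs), and ETS factors act there downstream of growth factor receptors and the ERK kinases.

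Each library held between 31996944 and 54594523 counts, and the 4 compared here 43384681 and 43915724 (control 1 and 2) and 46656815 and 31996944 (DKO 1 and 2). Control 1 and DKO 1 had Xist, which is transcribed from an inactive X chromosome, at 1840 and 1464 CPM (the share of the library total, scaled up) and no counts of the Y-linked Uty. Control 2 and DKO 2 had Xist at 1.07 and 1.72 CPM and Uty at 22.95 and 24.25. The sex pattern was therefore balanced between DKO and control, while all 6 libraries of KO, TKO and QKO had the second pattern. Of the 4 libraries, DKO 1 stood apart for pituitary genes. Their summed level was 207 CPM in DKO 1 against 7.45 in DKO 2 and 6.67 and 6.87 in the controls, and growth hormone (Gh) was at 187 nRPKM in DKO 1 and at 0 in DKO 2. The unit nRPKM is the authors' RPKM (reads scaled by gene length and sequencing depth) after division by a library size factor. Of 11 pituitary genes 7 were tested and edgeR and DESeq2 called 0 of them. At an unadjusted p under 0.05, 5 of the 7 were higher, against 4.28% of all genes tested.

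Jun (gene 16476) was low in both DKO libraries, as their label says. It stood at 14.99 and 15 nRPKM in the controls, at 16.1 and 15.3 in KO, and at 2.94 and 1.61 in DKO. The fold change was 6.46-fold lower in DKO (log2 fold change -2.69 ± 0.21, standard error, n = 2 libraries per group, edgeR quasi-likelihood test, adjusted p = 0.000277). Jun was also lower than in KO by a log2 fold change of -2.77 (adjusted p = 0.000119). TKO and QKO, which share the loss of cJun, held 1.60, 1.48, 2.05 and 1.44 nRPKM, close to the lower DKO library. Cop1 (gene 26374) stood at 5.0 and 4.74 nRPKM in control and 3.96 and 3.57 in DKO, and its log2 fold change of -0.37 ± 0.09 did not reach the threshold (adjusted p = 0.182). Its unadjusted p was 0.00162. The labels do not say which part of Cop1 was deleted and reads were summed over the gene, so this level was not used as a check of the label.

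All 3 transcripts of the PEA3 factors were lower in DKO. Etv4 (gene 18612) was at 5.15 and 6.08 nRPKM in the controls and 1.59 and 1.81 in DKO, 3.30-fold lower (log2 -1.72 ± 0.12, edgeR adjusted p = 0.000156). Etv1 (gene 14009) went from 4.82 and 4.95 to 1.98 and 2.11 nRPKM (-1.26 ± 0.11, adjusted p = 0.000919). Etv5 (gene 104156) went from 6.72 and 7.24 to 3.25 and 3.08 nRPKM (-1.14 ± 0.08, adjusted p = 0.000156). No control library overlapped a DKO library for any of the 3, which was also so for 38.5% of all genes tested. KO was low as well, with Etv4 at 1.18 and 1.20 nRPKM, Etv1 at 1.76 and 2.29 and Etv5 at 2.65 and 2.68. DKO minus KO on the log2 scale was 0.50 for Etv4 (adjusted p = 0.165), 0.01 for Etv1 (0.979) and 0.24 for Etv5 (0.258), none of which passed. The 3 calls against control held in each fit that left out 1 of the 4 libraries.

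**Figure D1:**
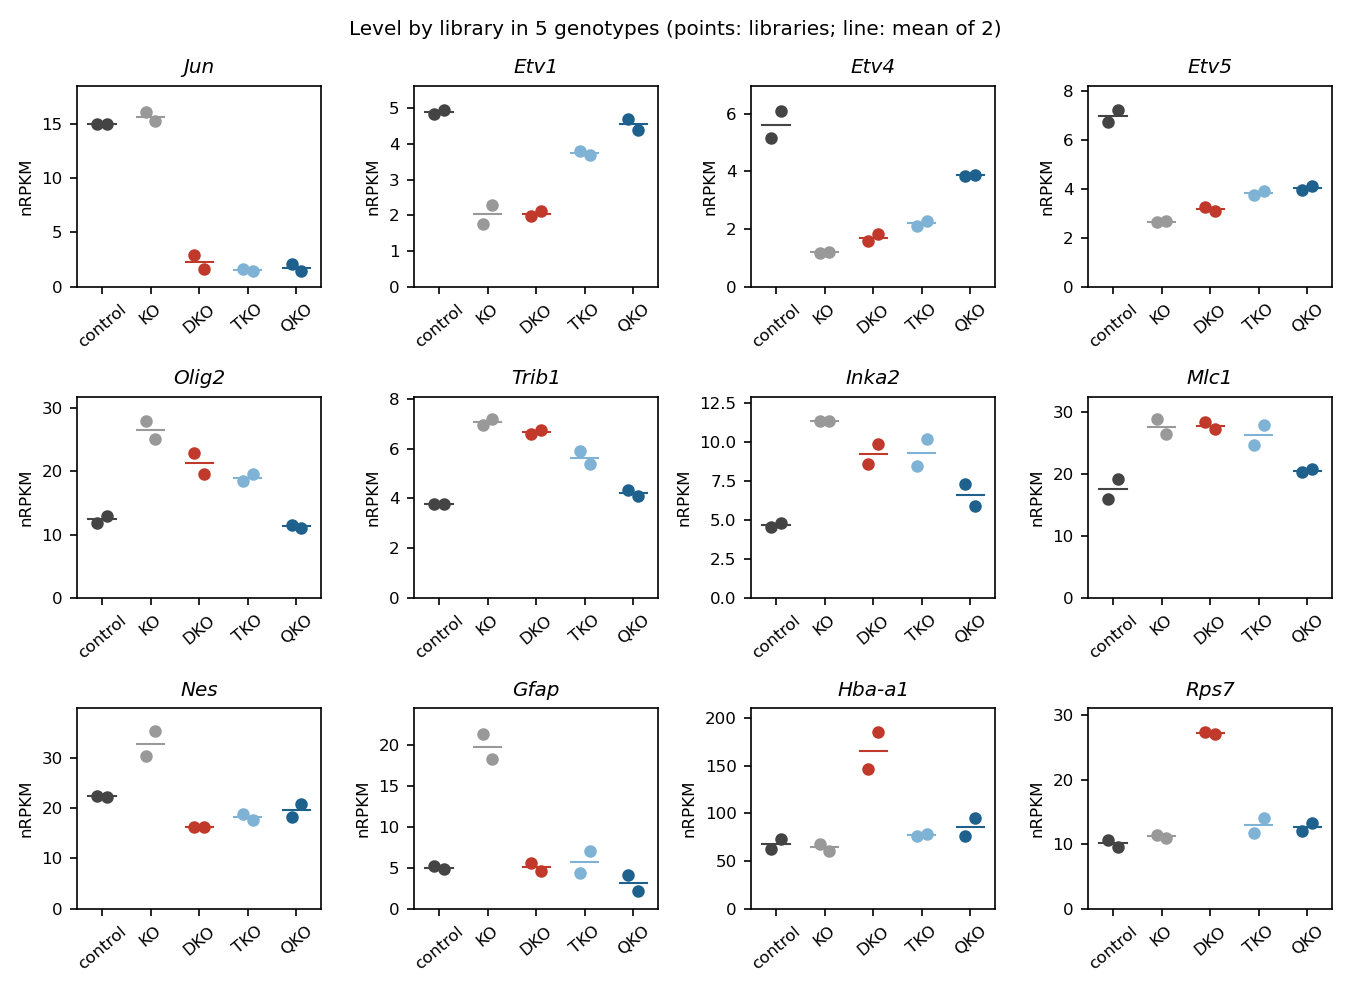
Level of 12 genes in each library (nRPKM, linear axis from 0) in the 5 genotypes. Points are libraries and lines are the mean of the 2. Jun is at 14.99 and 15 in control and at 2.94 and 1.61 in DKO, while Gfap is at 21.3 and 18.3 in KO and at 5.56 and 4.66 in DKO.

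In all, edgeR called 79 genes in DKO against control at an adjusted p under 0.05, which is 0.423% of the 18671 tested. Of these 56 (0.3%) were higher and 23 (0.123%) were lower in DKO. Some identifiers may share reads, as described below for Hbb-b1 and Hbb-b2, so the calls are not all separate measurements. The changes were mostly small: the median was 1.74-fold in either direction, and 35 of the higher and 14 of the lower genes changed by less than 2-fold. The median log2 fold change over all genes tested was 0. Of all genes tested, 38.5% had control and DKO libraries that did not overlap, so that a gap between 2 and 2 libraries is common by itself. All 56 higher and all 23 lower called genes had such a gap, so it adds nothing to a call. Without control 1 the count was 27, without control 2 it was 31, and without the pair of libraries with high Xist it was 35. With the mean level of the HOX genes as a covariate it was 31, with 18 of them among the 79.

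**Figure D2:**
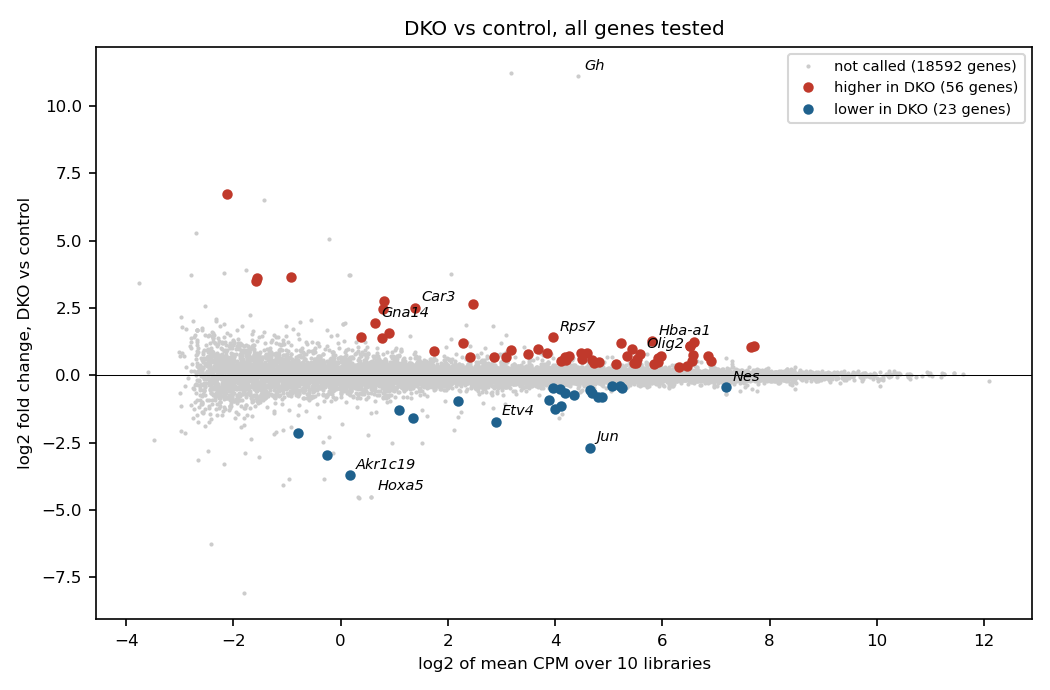
Each gene tested by its log2 mean CPM over the 10 libraries (x axis) and its log2 fold change in DKO against control (y axis). Red points are the 56 genes called higher and blue points the 23 called lower. Jun and the PEA3 gene Etv4 lie well below 0 among genes of moderate level, and Gh, which is high in DKO 1 and at 0 in DKO 2, lies near the top without a call.

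The AP-1 family is the set of basic leucine zipper factors that pair with cJun. Of 14 members tested, Jun was called lower and 13 were not called, and the median log2 fold change was 0.05. Junb, the closest relative named here, stood at 2.17 and 2.11 nRPKM in control and 2.61 and 2.44 in DKO (0.25 ± 0.14, adjusted p = 0.735). Jund (0.14 ± 0.12) and Fos (0.11 ± 0.22), given here after their values were seen, did not pass. Of 12 genes of the JNK pathway, the kinases that phosphorylate cJun, and 18 immediate early genes, which neurons and glia induce on stimulation, edgeR and DESeq2 called 0. At an unadjusted p under 0.05, a threshold that 8.14% of all genes passed (4.28% higher and 3.86% lower), 0 of the JNK genes and 4 of the immediate early genes passed, 3 higher and 1 lower.

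The promoters of all genes with an entry in RefSeq (build GRCm38.p6) were searched, on both strands, for the AP-1 motif TGANTCA in the 250 bases before the start. The motif was found in 7.82% of 27025 genes, in 4 of 37 called higher with an entry (Bcat1, Mt2, Kcnip3 and Gcnt4) and in 2 of 17 called lower (Emp1 and Cybrd1). Its variant TGACATCA, known from the human JUN promoter as a site of cJun with ATF2, was found in 3.41% of genes, in 1 of the 37 (Olig2) and in 1 of the 17 (Jun itself). The variant was taken from the promoter of JUN, and Jun is low in DKO by its label. The match in Jun therefore carries no information about the genes called lower. A match describes letters and is no evidence of binding. The windows of Jun, Cybrd1 and Emp1 are shown, in lower case and 5′ to 3′, because these are the called lower genes with a match, and the capitals mark the match. The window of Jun is chr4:95052223-95052472 on the minus strand, with the match 45 bases before the start. For Cybrd1 it is chr2:71117804-71118053 on the plus strand, with the match 235 bases before the start. Emp1 has more than 1 start, and its first window is chr6:135362681-135362930 on the plus strand, with matches 145 and 25 bases before the start. Its other window, chr6:135367243-135367492, held 0 matches and is not shown. A gene counted above if any of its windows held a match.
Jun: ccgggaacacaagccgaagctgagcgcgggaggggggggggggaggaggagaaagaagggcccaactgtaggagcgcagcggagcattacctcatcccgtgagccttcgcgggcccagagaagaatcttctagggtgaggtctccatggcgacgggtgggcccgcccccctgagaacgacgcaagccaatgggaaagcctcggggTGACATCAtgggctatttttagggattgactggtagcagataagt
Cybrd1: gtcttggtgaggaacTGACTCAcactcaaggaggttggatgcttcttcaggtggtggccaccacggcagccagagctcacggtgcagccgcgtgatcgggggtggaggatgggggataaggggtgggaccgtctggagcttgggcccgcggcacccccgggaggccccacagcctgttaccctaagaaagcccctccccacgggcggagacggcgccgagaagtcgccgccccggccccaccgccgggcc
Emp1: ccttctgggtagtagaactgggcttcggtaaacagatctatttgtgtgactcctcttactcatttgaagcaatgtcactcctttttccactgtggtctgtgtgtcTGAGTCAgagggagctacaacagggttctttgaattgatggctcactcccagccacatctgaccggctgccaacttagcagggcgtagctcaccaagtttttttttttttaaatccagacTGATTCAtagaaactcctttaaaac

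Emp1, which encodes an epithelial membrane protein, and Cybrd1, a ferric reductase, are named here after their values were seen. Emp1 was at 6.30 and 6.66 nRPKM in control, 6.35 and 6.66 in KO and 4.62 and 4.54 in DKO. It was lower in DKO than in control (-0.50 ± 0.08, edgeR adjusted p = 0.0228) and than in KO (-0.51, adjusted p = 0.0163), while KO differed from control by 0.02 (adjusted p = 0.967). Cybrd1 was at 5.07 and 4.94 nRPKM in control, 4.80 and 5.18 in KO and 3.28 and 3.59 in DKO. Its change was -0.54 ± 0.09 against control (adjusted p = 0.0209) and -0.55 against KO (adjusted p = 0.0163). For both genes the DKO libraries lay below all control and KO libraries. A gap between DKO and control alone was found for 38.5% of all genes tested. Whether these calls hold when 1 library is left out is not given here.

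Among the 11 genes of the COP1 ligase complex and its adaptors, Trib1 rose. Trib1 encodes a pseudokinase that brings substrates to COP1. It stood at 3.80 and 3.76 nRPKM in control and 6.61 and 6.78 in DKO, 1.77-fold higher (0.83 ± 0.08, edgeR adjusted p = 0.000982), and at 6.96 and 7.18 in KO. DKO minus KO was -0.09 (adjusted p = 0.628). The other 10 members did not pass, and the list's median was -0.01.

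Genes of ERK feedback moved in both directions. Of 16 tested, 2 were called higher, 3 were called lower and 11 were not called, with a median of 0.01. Over all genes tested 0.3% were called higher and 0.123% lower. At an unadjusted p under 0.05, 6 of the 16 were higher and 4 lower, against 4.28% and 3.86% of all genes. The genes called higher encode inhibitors of the pathway. Spry1, a Sprouty protein, was at 5.59 and 5.498 nRPKM in control, 6.34 and 6.86 in KO and 8.39 and 7.77 in DKO (0.55 ± 0.08, edgeR adjusted p = 0.0125). Dusp6, an ERK phosphatase named here after its values were seen, went from 10.7 and 10.4 in control to 14.7 and 13.5 in DKO (0.43 ± 0.08, adjusted p = 0.0421). KO held Dusp6 at 10.6 and 11.1 nRPKM, and DKO minus KO was 0.37 (adjusted p = 0.0661). Dusp6 lost its call against control without control 1, control 2 or DKO 1. The genes called lower were Etv4 and Etv5, which ERK signalling induces in many tissues, and Spred3, a Sprouty-related inhibitor. Spred3 fell from 9.82 and 9.996 nRPKM in control to 7.22 and 6.94 in DKO (-0.48 ± 0.07, adjusted p = 0.0131), next to 7.14 and 7.82 in KO. Ier3, an early response gene, was at 0.55 ± 0.22 and did not pass (adjusted p = 0.515). Leaving out 1 library at a time, Spry1 passed only without DKO 2 (highest adjusted p 0.147, without control 2) and Spred3 only without DKO 1 (highest 0.146, without control 2).

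Of the OPC genes, Olig2 rose in DKO. Olig2 is a transcription factor that OPCs require. It stood at 11.9 and 13.01 nRPKM in control, 22.9 and 19.7 in DKO and 28.04 and 25.1 in KO. DKO was 1.71-fold above control (0.78 ± 0.09, edgeR adjusted p = 0.00249), while DKO minus KO was -0.33 and did not pass (adjusted p = 0.173). Both DKO libraries lay between the control and the KO libraries. The call was lost without control 1 (0.72, adjusted p = 0.0511) and without the libraries with high Xist (0.60, adjusted p = 0.098). In bulk tissue, more cells of a type and more RNA per cell cannot be told apart, here and for the lists below.

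The other 15 of the 16 OPC genes were not called by edgeR. DESeq2 called 5 of the 16 (4 higher, 1 lower), and edgeR called 7 with no filter on low counts (6 higher, 1 lower). At an unadjusted p under 0.05, 7 of the 16 were higher and 1 was lower, against 4.28% and 3.86% of all genes, and the median was 0.25. Olig1, the neighbour and relative of Olig2, stood at 39.1 and 46.2 nRPKM in control, 73.1 and 59.7 in DKO and 107.7 and 88.8 in KO (DKO against control 0.64 ± 0.13, edgeR adjusted p = 0.0791, DESeq2 adjusted p = 4.37e-05). Matn4, a matrix protein gene, was at 0.80 ± 0.18 (adjusted p = 0.127). Sox10 (0.37 ± 0.16) and Pdgfra (0.30 ± 0.08), the OPC growth factor receptor, did not pass, and both were called in KO against control (1.02 and 0.58). Gpr17, which marks precursors about to differentiate, had the lowest value of the list (-0.60 ± 0.15, adjusted p = 0.228). These 3 are named after their values were seen. Of 12 myelin genes tested edgeR and DESeq2 called 0, with a median of -0.10 and 3 lower at an unadjusted p under 0.05.

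**Figure D3:**
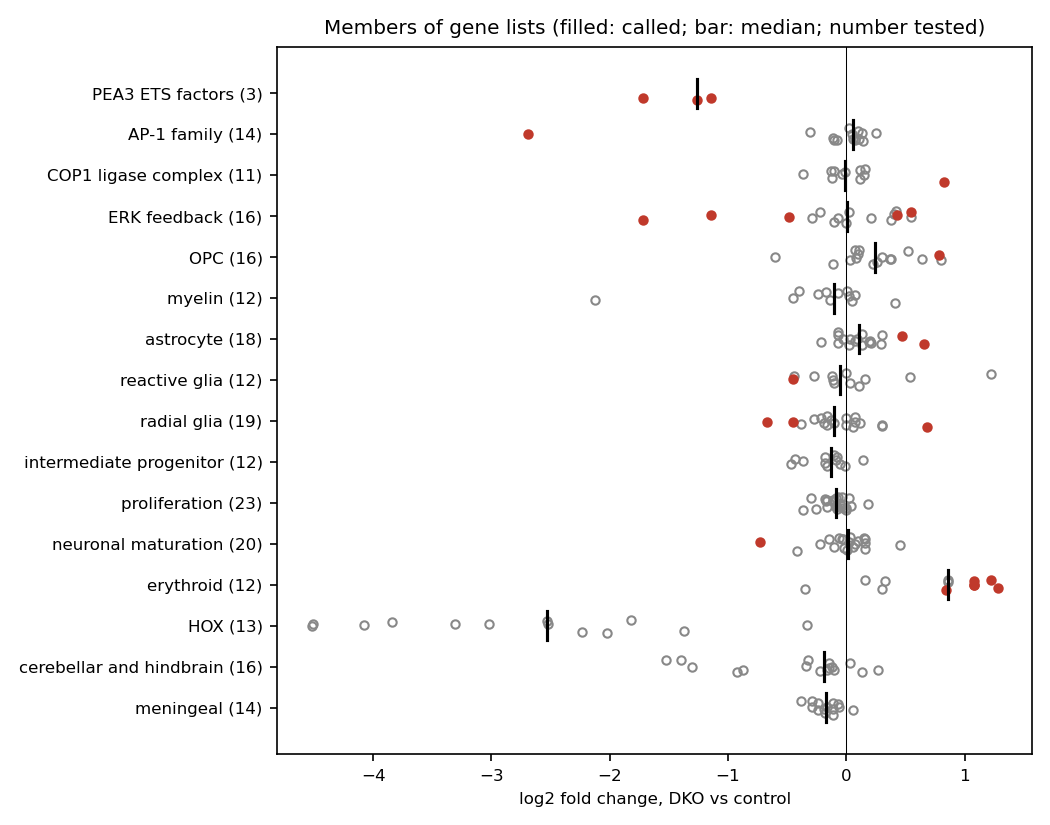
Log2 fold change in DKO against control (x axis) of each tested member of 16 gene lists, with the number tested in brackets. Filled red points are called genes, open points are not, and black bars are medians. The OPC list has a median of 0.25 with 1 call, the erythroid list 0.86 with 6 calls, and the HOX list -2.53 with 0 calls by edgeR in the fit of all 10 libraries (3 by DESeq2).

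Astrocyte genes showed 2 calls among 18, both higher, with a median of 0.11. Over all genes tested 0.3% were called higher and 0.123% lower. At an unadjusted p under 0.05, 4 of the 18 were higher and 1 was lower, against 4.28% and 3.86% of all genes. DESeq2 called 3 of the 18, all higher. Mlc1, a membrane protein of astrocyte endfeet, was at 16.0 and 19.1 nRPKM in control, 28.3 and 27.2 in DKO and 28.8 and 26.4 in KO (0.66 ± 0.09, edgeR adjusted p = 0.00777). Acsbg1, an acyl-CoA synthetase, went from 11.2 and 12.9 to 16.8 and 16.4 nRPKM (0.47 ± 0.08, adjusted p = 0.0313), with 17.6 and 16.3 in KO. DKO minus KO was 0.00 for Mlc1 (adjusted p = 0.995) and -0.04 for Acsbg1 (0.854). The glutamate transporter gene Slc1a3 was at 0.30 ± 0.07 and did not pass by edgeR (adjusted p = 0.117), but did by DESeq2 (adjusted p = 0.00433). Without control 1, neither Mlc1 (adjusted p = 0.101) nor Acsbg1 (0.334) passed, and Acsbg1 also failed without DKO 1 (0.103) or DKO 2 (0.0875).

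Gfap and Aldh1l1 did not share that pattern. They are named here after their values were seen. Gfap, the intermediate filament of astrocytes, was at 5.16 and 4.87 nRPKM in control, 21.3 and 18.3 in KO and 5.56 and 4.66 in DKO. DKO differed from control by 0.03 ± 0.26 (edgeR adjusted p = 0.989) and from KO by -1.96 (adjusted p = 0.00546), so that DKO lay at the control level and below both KO libraries. Aldh1l1, a folate enzyme used as an astrocyte marker, was at 24.1 and 24.7 in control, 37.97 and 35.3 in KO and 22.6 and 27.0 in DKO. DKO minus control was 0.02 ± 0.08 and DKO minus KO was -0.57 (adjusted p = 0.00726).

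Of 19 radial glia genes edgeR called 1 higher and 2 lower and did not call 16, with a median of -0.10. Over all genes tested 0.3% were called higher and 0.123% lower. At an unadjusted p under 0.05, 3 of the 19 were higher and 4 lower, against 4.28% and 3.86% of all genes. DESeq2 called 3 higher and 2 lower, as did edgeR with no filter on low counts, so that the balance of the calls turned. Nes, the intermediate filament of neural progenitors, was at 22.5 and 22.3 nRPKM in control, 30.3 and 35.4 in KO and 16.4 and 16.2 in DKO. It was thus lower in DKO than in control (-0.45 ± 0.08, edgeR adjusted p = 0.0421) and than in KO (-1.02, adjusted p = 0.000159). Pdpn, a membrane glycoprotein of radial glia and ependyma, fell from 11.99 and 12.1 to 8.14 and 6.92 nRPKM (-0.67 ± 0.09, adjusted p = 0.00905), near the 8.43 and 8.35 of KO. Hes1, a repressor that Notch signalling induces, rose from 4.05 and 4.49 to 7.32 and 6.33 nRPKM (0.68 ± 0.11, adjusted p = 0.0209), with 5.99 and 5.67 in KO. Hes1 was also the only call among 15 Notch genes, of which 3 were higher and 4 lower at an unadjusted p under 0.05. Nes did not pass with the Xist pattern as a covariate (-0.45, adjusted p = 0.062) or in any fit that left out 1 library (adjusted p between 0.135 and 0.334), Pdpn did not pass without control 1 (0.0955) or control 2 (0.0886), and Hes1 passed only without DKO 2 (highest 0.291, without control 1).

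Vim and Egfr, named after their values were seen, lay near control in DKO. Vim, the other main filament of radial glia, was at 152 and 145 nRPKM in control, 232 and 236 in KO and 145 and 132 in DKO (-0.10 ± 0.07 against control, edgeR adjusted p = 0.806; -0.77 against KO, 0.000667). Egfr, a growth factor receptor of progenitors, was at 4.74 and 5.16 in control, 7.55 and 8.30 in KO and 4.17 and 4.70 in DKO (-0.16 ± 0.09 against control; -0.85 against KO, adjusted p = 0.00106). Of 12 reactive glia genes tested edgeR called Nes alone, and 0 with the Xist pattern as a covariate, and the median was -0.05. Spp1 (0.54 ± 0.17, adjusted p = 0.345) and Steap4 (1.22 ± 0.44, adjusted p = 0.452) had the largest positive values of that list and did not pass. Steap4 stood at 0.413 nRPKM in DKO 2 and 0.162 in DKO 1.

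**Figure D4:**
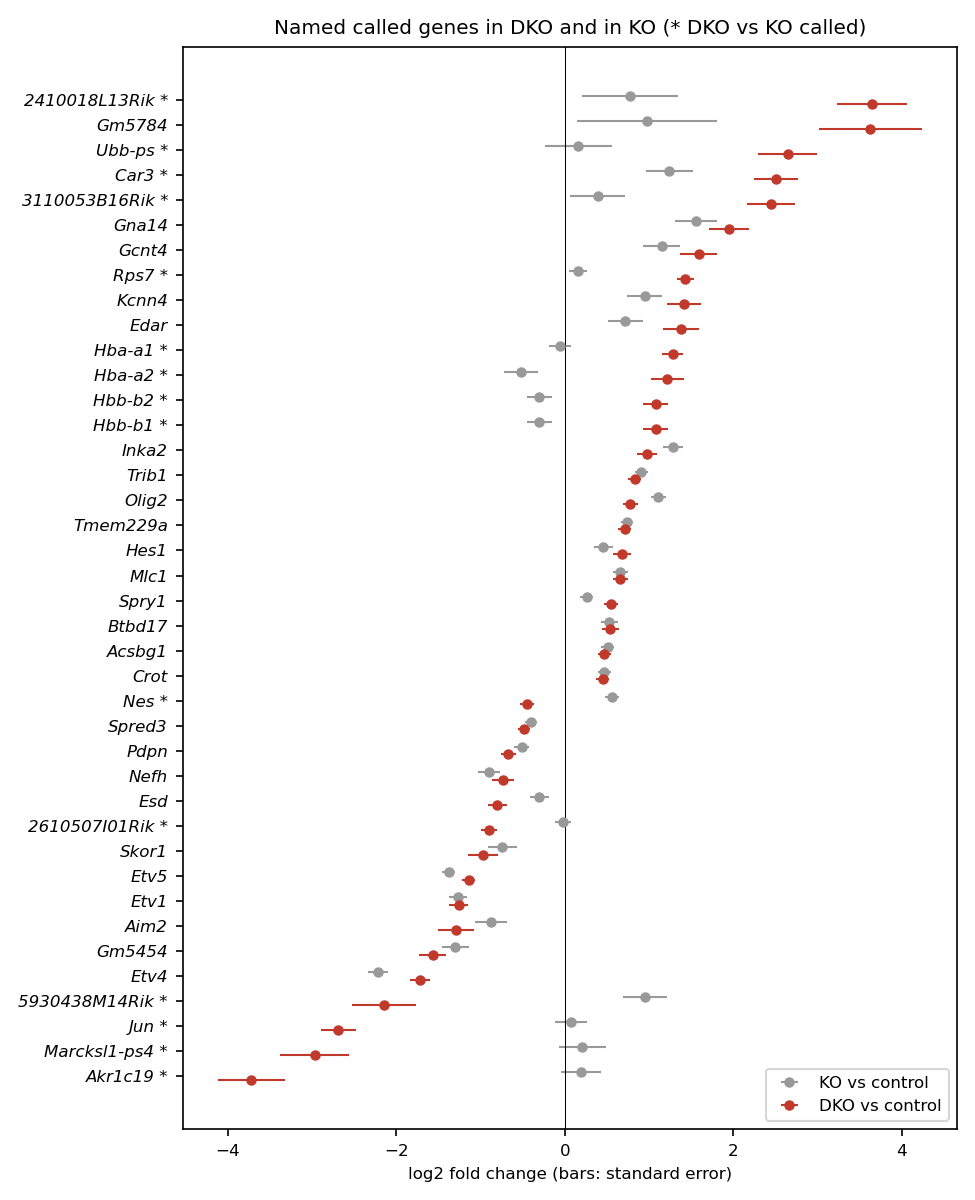
Log2 fold change against control (x axis, bars are standard errors) of 40 of the 41 named genes called in DKO (Gm7444, with no control counts, is left out), in DKO (red) and in KO (grey). A star marks genes called between DKO and KO. Red and grey points nearly coincide for Etv1 and Mlc1 and lie far apart for Jun, Rps7 and the haemoglobin genes, and on opposite sides of 0 for Nes.

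A further 10 genes had been listed for their response to COP1 loss in earlier results of these data, so the list is no independent evidence of direction. In DKO against control 2 were higher and 8 were not called, with a median of 0.29. Gna14, a G protein subunit gene, was at 0.208 and 0.200 nRPKM in control, 0.639 and 0.548 in KO and 0.938 and 0.613 in DKO (1.95 ± 0.24, edgeR adjusted p = 0.00469). Inka2, which encodes an inhibitor of the kinase PAK4, was at 4.58 and 4.82 in control, 11.4 and 11.4 in KO and 8.60 and 9.87 in DKO (0.98 ± 0.12, adjusted p = 0.00313). Neither differed from KO by the test (0.39, adjusted p = 0.43; -0.31, 0.278). The collagen gene Col5a3 was at 1.00 ± 0.23 and did not pass (adjusted p = 0.133). Prr5l, Prokr1, Galr2 and Col27a1 were called lower in DKO than in KO, and their changes against control were 0.27, 0.17, -0.59 and -0.47, none of which passed. Inka2 was lost without control 1 (adjusted p = 0.0586), and Gna14 without control 1 (0.0695) or control 2 (0.0751).

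The genes closest to KO among those called in DKO were Mlc1, Etv1, Btbd17, Crot and Tmem229a. Tmem229a, a transmembrane protein gene, was at 5.63 and 5.51 nRPKM in control, 9.66 and 8.83 in KO and 8.75 and 9.43 in DKO (0.71 ± 0.08, edgeR adjusted p = 0.00141), and its call held without each of the 4 libraries. Btbd17 (0.54 ± 0.10) and Crot, a carnitine acyltransferase gene of peroxisomes (0.45 ± 0.08), lost theirs in each of these fits, with adjusted p between 0.102 and 0.438 for Btbd17 and between 0.0574 and 0.264 for Crot. DKO minus KO lay between -0.03 and 0.01 for the 5 genes. In all, edgeR called 106 genes between DKO and KO (0.568% of those tested) and 137 between KO and control (0.734%). Those comparisons share libraries with DKO against control, so the values are given side by side with no count of shared calls.

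Neuronal lists held few calls. Of 20 neuronal maturation genes, Nefh, the heavy neurofilament of large axons, was lower in DKO, at 3.81 and 4.05 nRPKM against 6.44 and 6.57 in control and 3.75 and 3.15 in KO (-0.73 ± 0.13, edgeR adjusted p = 0.0454). The list's median was 0.02, and DESeq2 called 3 of the 20, 1 higher and 2 lower. Nefh passed in none of the fits that left out 1 library (adjusted p between 0.106 and 0.272). Of 12 intermediate progenitor genes edgeR and DESeq2 called 0, with a median of -0.13. At an unadjusted p under 0.05, 5 of the 12 were lower (over all genes, 4.28% were higher and 3.86% lower). Among them Eomes, the factor of cortical intermediate progenitors, stood at 7.64 and 8.40 nRPKM in control, 4.21 and 5.24 in KO and 5.08 and 6.498 in DKO (-0.47 ± 0.15, adjusted p = 0.331). Neurog2, a proneural factor, was at -0.43 ± 0.15 (adjusted p = 0.414) and Mfng, a Notch-modifying glycosyltransferase, at -0.37 ± 0.12 (0.344). Of 23 proliferation genes edgeR and DESeq2 called 0 and 1, Mki67, was lower at an unadjusted p under 0.05 (-0.37 ± 0.10, adjusted p = 0.268), with a median of -0.09. In the 16 cortical layer genes, 16 GABAergic genes and 13 striatal genes edgeR called 0, with medians of 0.05, 0.05 and -0.05. In these 3 lists, in that order, 1, 2 and 0 genes were higher and 2, 0 and 2 lower with an unadjusted p below 0.05, while 0, 1 and 0 were called by DESeq2.

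Red cell genes rose in DKO. Of 20 listed, 12 were tested and 6 were called higher, with a median of 0.86. Over all genes tested 0.3% were called higher. At an unadjusted p under 0.05, 8 of the 12 were higher and 0 lower, against 4.28% and 3.86% of all genes. Hba-a1, an alpha globin gene, was at 63.1 and 73.3 nRPKM in control, 68.4 and 60.97 in KO and 146 and 185 in DKO, 2.43-fold above control (1.28 ± 0.13, edgeR adjusted p = 0.000982). Both DKO libraries lay above the other 8 libraries of the series. Hba-a2 (1.22 ± 0.20, adjusted p = 0.0248), Hbb-b1 and Hbb-b2 (1.08 ± 0.15, adjusted p = 0.00777) rose as well. The counts of Hbb-b1 and Hbb-b2 are identical throughout, so the pair is 1 measurement entered under 2 identifiers, and globin copies may share reads. Hbb-bs (1.08 ± 0.15) and Alas2, the first enzyme of haem synthesis in red cells (0.84 ± 0.15, adjusted p = 0.0421), were also called. Alas2 stood at 8.03 and 10.1 nRPKM in control and 15.4 and 16.9 in DKO. These last 2 are named after their values were seen.

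Not all red cell genes moved. Slc25a37, a mitochondrial iron carrier, was at -0.35 ± 0.19, and Klf1, an erythroid transcription factor, was between 0.0694 and 0.128 nRPKM in the 4 libraries. Both are named after their values were seen. The summed level of the list was 567 and 660.6 CPM in control, 469 and 523 in KO and 1075 and 1267 in DKO. Both DKO libraries were high, DKO 1 with its pituitary transcripts and DKO 2 without them. The mean log2 level of the red cell genes separates both DKO libraries (0.73 and 0.74 above the control mean) from the other 8 (between -0.34 and 0.29), so red cell content and genotype cannot be told apart in any result here. With that mean as a covariate edgeR called 1 gene, which is not among the 79. The red cell genes make up that mean, so that fit cannot judge them. Without control 1 the list had 1 call in place of 6, and with the HOX mean as a covariate it had 0. Without control 1, Hbb-b1 and Hbb-b2 (adjusted p = 0.087), Hba-a2 (0.292), Hbb-bs and Alas2 did not pass, Hba-a2 also not without control 2 (0.141) or DKO 2 (0.0998), and Hba-a1 passed in all 4 fits.

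HOX genes, which mark the caudal hindbrain and spinal cord, were low in DKO, and whether they were called depended on the fit. Of 20 listed 13 were tested, edgeR called 0 in the fit of all 10 libraries, and the median was -2.53. At an unadjusted p under 0.05, 12 of the 13 were lower, against 3.86% of all genes. Hoxa5 stood at 1.39 and 2.92 nRPKM in control, 0.143 and 0 in KO and 0.104 and 0.0767 in DKO (-4.51 ± 0.91, adjusted p = 0.0791). Hoxb5 was at -4.52 ± 1.20 (adjusted p = 0.246) and Hoxb4 at -4.08 ± 0.88 (0.108). DESeq2 called 3 of the list lower, edgeR called 7 lower with only the 4 libraries compared (Hoxa5 and Hoxb5 each at adjusted p = 0.00921) and 10 lower with no filter on low counts. The summed level was 34.9 and 47.2 CPM in control, 5.0 and 10.2 in DKO and 4.72 and 2.04 in KO, so that DKO and KO lay on the same side of control. TKO held 21.7 and 16.6 CPM. The QKO libraries lay apart, at 35.4 and 5.88 CPM, so the level also varied between libraries of the same genotype. Of 16 cerebellar and hindbrain genes edgeR called 0 and DESeq2 2, both lower, with a median of -0.19. At an unadjusted p under 0.05, 8 were lower and 1 higher, against 3.86% and 4.28% of all genes. Pax2, a factor of the midbrain and hindbrain named after its values were seen, was at -1.30 ± 0.27 and did not pass (adjusted p = 0.0973).

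The low HOX level moved with DKO beside each glial and neuronal gene above. With the HOX mean as a covariate 12 of the 41 named calls passed. Inka2 (1.23, adjusted p = 0.015) and Nes (-0.64, adjusted p = 0.0439) did, and Olig2 (0.85, 0.0535), Mlc1 (0.69, 0.138) and Hba-a1 (1.19, 0.0506) had similar or larger values without passing. The change of Nefh went from -0.73 to -0.29 (adjusted p = 0.489).

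**Figure D5:**
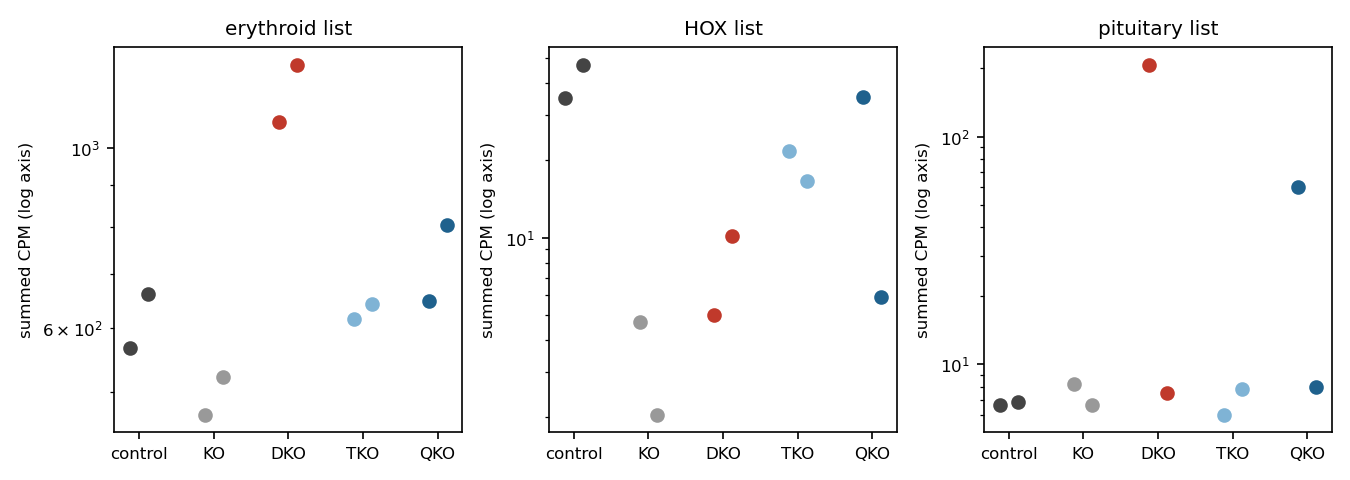
Summed CPM (log axes) of the erythroid, HOX and pituitary lists in each of the 10 libraries. Erythroid sums are 1075 and 1267 in DKO against 567 and 660.6 in control, HOX sums are 5.0 and 10.2 against 34.9 and 47.2, and the pituitary sum of 207 is that of DKO 1.

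In 18 further lists of other tissues and pathways edgeR called 0 genes. These were the lists of endothelial, pericyte, microglial, meningeal, choroid plexus, ependymal, skeletal muscle and olfactory genes, and those of cholesterol synthesis, the interferon response, MHC class I, hypoxia, the stress response, sonic hedgehog, Wnt and BMP signalling, axon injury, the thalamus and midbrain, and hypothalamic peptides. Of their 248 tested members, 23 were higher and 28 lower with an unadjusted p below 0.05. Over all genes tested the shares were 4.28% higher and 3.86% lower. By DESeq2 2 were called, both higher. Meningeal genes had a median of -0.17 with 3 of 14 lower at an unadjusted p under 0.05, and interferon genes a median of -0.26 with 4 of 16 lower. MHC class I genes, which present peptides to T cells, had a median of 0.38 with 5 of 18 higher and 2 lower. All 12 hypothalamic peptide genes tested had positive values, with 3 at an unadjusted p under 0.05. That list holds Pomc, which stood at 26.4 nRPKM in DKO 1 and 1.20 in DKO 2.

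The largest increases fell on genes of low level, many of them clone names or pseudogenes. Gm7444 had 0 and 0 counts in control and 12 and 13 in DKO, at least 4.8-fold higher when set against a floor of 3 counts per library. 2410018L13Rik rose from 5 and 3 counts to 63 and 32 (3.65 ± 0.42, edgeR adjusted p = 0.00249; ratio of the normalised sums 13.2, 95% counting interval 6.42 to 31.4). Gm5784 went from 3 and 2 counts to 42 and 18 (3.63 ± 0.61, adjusted p = 0.0285). Ubb-ps, a ubiquitin pseudogene that may share reads with its parent gene, went from 1.70 and 2.07 nRPKM to 10.6 and 13.2 (2.65 ± 0.35) and was also high in QKO, at 10.9 and 25.8. Car3, a muscle-type carbonic anhydrase, rose from 0.595 and 0.426 nRPKM to 3.03 and 2.76 (2.51 ± 0.26, adjusted p = 0.00141), above the 1.44 and 0.920 of KO (DKO minus KO 1.27, adjusted p = 0.0407). Car3 stood at 2.23 and 2.69 nRPKM in TKO and 0.637 and 0.950 in QKO. 2410018L13Rik was at 0.686 and 0.607 in TKO and 0.0849 and 0.173 in QKO. Gm5784 was at 1.23 and 1.64 in TKO and 0.314 and 0.0485 in QKO. QKO shares the loss of COP1 and cJun, yet held Car3, 2410018L13Rik and Gm5784 below both DKO libraries. Gcnt4, a glucosaminyltransferase gene (1.59 ± 0.22), Kcnn4, a calcium-activated potassium channel (1.42 ± 0.20), and Edar, the ectodysplasin receptor (1.38 ± 0.21), reached no more than 1.03 nRPKM in any of the 10 libraries. Of these, Car3 passed without each of the 4 libraries. 2410018L13Rik was lost without control 2 (adjusted p = 0.0572), Gcnt4 and Ubb-ps without either control (0.101 to 0.122 and 0.0757 to 0.116), Kcnn4 passed only without DKO 1, Gm5784 only without DKO 2, Gm7444 only without DKO 1, and Edar never (highest 0.208).

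Called genes were also placed along the chromosomes, by their order in RefSeq for GRCm38.p6. Over all genes tested 0.423% were called. Chromosome 3 had the highest share, with 9 calls among 832 tested genes (1.08%), and chromosome 14 had 5 among 601 (0.832%). Chromosomes 12 and 13 are described because they hold several of the genes with the largest changes. Chromosome 12 held 6 calls among 632 tested genes (0.949%). Of these, Gm5784, 3110053B16Rik, 2410018L13Rik, Rps7 and Acp1 were higher in DKO and lay 80, 78, 70, 49 and 38 tested genes from Etv1, the 1 lower gene. The distances were counted without regard to side, so they do not show whether these genes lie together. Rps7, a protein of the small ribosomal subunit, was at 10.7 and 9.52 nRPKM in control, 11.4 and 11.03 in KO and 27.4 and 27.1 in DKO (1.43 ± 0.10, edgeR adjusted p = 0.000156). It was the only call among 14 ribosomal protein genes, whose median was 0.02, and it passed without each of the 4 libraries. Acp1, a small phosphatase gene named after its values were seen, rose from 1.14 and 1.06 to 2.55 and 2.50 nRPKM (1.20 ± 0.13). In TKO and QKO both stood near control, Rps7 at 11.8, 14.1, 12.03 and 13.3 nRPKM and Acp1 at 1.02, 1.25, 1.14 and 1.09. 3110053B16Rik was at 0.943 and 0.769 nRPKM in control and 4.74 and 4.604 in DKO (2.45 ± 0.29). It was also high in TKO, at 4.40 and 4.48, but stood at 1.13 and 1.68 in QKO. Its call was lost without control 2 (2.31).

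Chromosome 13 held 5 calls among 631 (0.792%), 4 of them lower. Akr1c19, an aldo-keto reductase gene, had 40 and 50 counts in control and 4 and 2 in DKO, 13.5-fold lower by the normalised sums (95% counting interval 5.97 to 37.8; log2 -3.72 ± 0.40, adjusted p = 0.00162 by edgeR). Marcksl1-ps4, a pseudogene next to it in that order, had 36 and 44 counts in control and 4 and 5 in DKO (-2.97 ± 0.41). The other lower genes, 5930438M14Rik (-2.15 ± 0.38) and Gm5454 (-1.57 ± 0.16), lay 544 and 549 tested genes away. Gm5454 was also low in KO, at 1.13 and 1.34 nRPKM next to 3.12 and 2.99 in control and 0.943 and 1.13 in DKO. Akr1c19 was at 0.685 and 0.851 nRPKM in control, 0.235 and 0.1075 in TKO and 2.23 and 2.35 in QKO. Marcksl1-ps4 was at 0.734 and 0.891 in control, 0.258 and 0.128 in TKO and 1.88 and 1.44 in QKO. Akr1c19 and Marcksl1-ps4 were thus above control in QKO, which shares the loss of COP1 and cJun with DKO. Akr1c19 and Gm5454 passed without each of the 4 libraries, Marcksl1-ps4 did not without control 2 (adjusted p = 0.08) or DKO 1 (0.0894), and 5930438M14Rik passed in none of these fits (0.0992 to 0.264). On chromosome 4, within 50 tested genes of Jun on either side, 0 of 100 genes were called. With 0.423% called over all genes tested, a window of 100 genes says little. The nearest other call on that chromosome was Acot11 (0.97), 56 tested genes from Jun.

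Of the remaining lower genes, Aim2, a sensor of cytosolic DNA, was at 1.17 and 1.21 nRPKM in control and 0.447 and 0.533 in DKO (-1.29 ± 0.21, edgeR adjusted p = 0.021). Skor1, a corepressor of dorsal spinal and hindbrain neurons, was at -0.97 ± 0.18, Esd, an esterase gene, at -0.80 ± 0.11 and 2610507I01Rik at -0.90 ± 0.09. 2610507I01Rik was at 6.59 and 6.20 nRPKM in control, 5.86 and 6.72 in KO, 3.40 and 3.44 in DKO and 0.617 and 0.663 in QKO, and passed without each of the 4 libraries. Aim2 passed in none of those fits (adjusted p 0.0554 to 0.154), and Skor1 and Esd passed only without DKO 2 (highest 0.331 and 0.101, without control 1). Kcnj10, the inward rectifier potassium channel of glia, named after its values were seen, was at 6.30 and 6.88 nRPKM in control, 7.97 and 8.15 in KO and 4.95 and 4.99 in DKO (-0.41 ± 0.07, adjusted p = 0.0421). Its DKO libraries lay below those of control and KO, and the difference from KO was -0.71 (adjusted p = 0.00104). A gap between DKO and control alone was found for 38.5% of all genes tested.

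Further higher genes, also named after their values were seen, changed by less than 2-fold. Igfbp4, which binds insulin-like growth factors, stood at 36.4 and 35.6 nRPKM in control, 39.8 and 36.2 in KO and 54.2 and 50.2 in DKO (0.54 ± 0.07, edgeR adjusted p = 0.00633; DKO minus KO 0.45, 0.0155). Mt2, a metal-binding metallothionein, was at 14.9 and 15.1 in control, 25.0 and 20.4 in KO and 24.3 and 27.3 in DKO (0.78 ± 0.12, adjusted p = 0.015). Fzd9, a Wnt receptor, was at 5.78 and 6.17 in control, 11.1 and 9.43 in KO and 10.3 and 8.89 in DKO (0.69 ± 0.11, adjusted p = 0.0216). Mt2 and Fzd9 were thus at similar levels in DKO and KO, and their differences from KO, 0.17 and -0.10, did not pass. Apln, the apelin peptide gene, went from 3.15 and 2.84 to 4.59 and 6.003 nRPKM (0.82 ± 0.15, adjusted p = 0.0473).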

How the data were processed

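RNA was sequenced from 10 libraries of 5 genotypes with 2 libraries each, and 4 of them, DKO and control, are compared here. Polyadenylated RNA libraries were made with a TruSeq kit from 1 microgram of RNA and read as 75 bp paired ends, 5 libraries to a lane, per the labels' protocols. As the lane, litter and sex of a library are not stated, no lane or litter batch could be tested. Reads were aligned with GSNAP to NCBIM37, per the submitters' processing notes. Each deposited count is, per the file headers, the uniquely aligned reads of a gene model. The deposited nRPKM is an RPKM value that the authors divided by a size factor of each library, per the file headers. Strand handling and annotation release: not given in the sources used here. Therefore overlapping or near-identical genes may share reads.

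Symbols came from RefSeq for GRCm38.p6, which named 24998 of 28059 Entrez identifiers (89.1%, with 95.8% of the counts), and its order of genes was used for neighbours. Promoter windows came from the same release. The test was the quasi-likelihood test of edgeR 4.0.16 (R 4.3.3) with TMM scaling, filterByExpr (18671 genes kept, 9388 set aside), 1 mean per genotype fitted to all 10 libraries with 5 residual degrees of freedom (common biological coefficient of variation 0.0821), and p-values adjusted by Benjamini-Hochberg over the whole table. Calls needed an adjusted p under 0.05. The error after ± is the absolute log2 fold change divided by the square root of F, and values in nRPKM are those of single libraries. Library totals ranged from 31996944 to 54594523 counts, so 3 counts stood for 0.055 to 0.0938 CPM, a bound on counting error alone. Libraries of a group differed by more than counting noise (chi-square per degree of freedom 7.51 to 19.49), so none was counted as a repeat. The script was tested on simulated data. Lists with a median give the log2 fold change of tested members. A gene can be on several lists.

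The genes named are Cop1, Jun, Etv1, Etv4 and Etv5, up to 12 called genes each way with the largest change (with a symbol, counts in at least 2 of the 4 libraries and groups that do not overlap in CPM), up to 4 called and 3 largest members of lists, and up to 5 genes each closest to KO or also called against it, called genes within 50 tested genes of Jun, and Xist and Y-linked genes as a check. Others are stated as named after their values were seen. The members and lists were chosen with earlier results of these data known. Of 617 list symbols 4 matched no identifier. Alternatives were RLE scaling, no filter, a CPM minimum of 1 in 2 libraries, DESeq2 1.42.0, only the libraries compared, covariates (Xist pattern, HOX mean, erythroid mean) and leaving out each library. Leaving out both libraries with high Xist was added after the data were seen.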

Additional observations from a re-analysis of the deposited data

Results flagged for a closer look

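Fosb, a partner of cJun in AP-1, is given here because its change went opposite ways in the pairs of libraries matched by Xist pattern. The log2 ratio of DKO to control was 0.05 between the libraries with high Xist and -0.92 between those with low Xist, a difference of 0.97 that was not tested. Fosb stood between 0.0534 and 0.101 nRPKM in the 4 libraries.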

How the results depend on the processing

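DKO vs control gave 79 calls. It gave 225 with no low-count filter, 138 by DESeq2, 31 with the HOX covariate, 1 with the erythroid covariate, 35 without the 2 libraries with high Xist, and 27 to 70 when 1 library was left out (27 without control 1, 70 without DKO 1). RLE scaling (78), a CPM minimum (72), only the 4 libraries (93) and the Xist covariate (87) stayed within 1.5 times. DKO vs KO, with 106, gave 336 with no filter, 228 by DESeq2, 63 with only its 4 libraries, 64 with the Xist covariate, 423 with the HOX covariate, 5 with the erythroid covariate, 63 without the libraries with high Xist and 42 (without KO 2) to 122 (without DKO 2) leaving out 1. KO vs control, with 137, gave 300, 239, 691, 59, 106, 24, 40 and 23 (without KO 1) to 44 (without KO 2) in that order. The cause of these shifts was not tested. The erythroid score separates both DKO libraries from all others, so adjusting for it cannot be told apart from adjusting for the DKO genotype. Of the 41 named calls, 41 passed with RLE scaling and with no filter, 36 of 39 with the CPM minimum, 40 by DESeq2 and with the Xist covariate, 33 with only 4 libraries, 12 with the HOX covariate, 0 with the erythroid covariate and 13 once the high-Xist libraries were dropped. In the 4 fits that leave out 1 library, 12 of the 41 passed every time and 7 never did. Signs turned with the HOX covariate for Hoxb5 (0.96) and Fosb (0.32). They turned with the erythroid covariate for Hoxb5 (18.56), Hoxa5 (14.02), Hoxb4 (8.65), Nefh (0.20), Fosb (0.06), Steap4 (-0.01), Hba-a2 (-0.81) and 3110053B16Rik (-0.22). Hoxb5 is among the genes averaged in the HOX covariate, and Hba-a2 among those averaged in the erythroid covariate. A gene cannot be judged in a fit adjusted for a mean that it helps to make. Leaving out 1 library, Fosb ranged from -0.87 to 0.01 (without DKO 2). No paired analysis was possible because the labels carry no replicate numbers. The nearest fit, with the Xist pattern as a covariate in place of a pairing, is the one with 87 calls. With 2 libraries a group and 5 residual degrees of freedom, small changes of genes with few counts were not detectable at this depth.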

Other observations

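Other called genes, named after their values were seen, are given here beside their KO levels. Hjurp, a chaperone that loads the centromeric histone, was at 9.62 and 9.51 nRPKM in control, 7.06 and 7.82 in KO and 15.2 and 16.4 in DKO (0.73 ± 0.07 against control, edgeR adjusted p = 0.000982). Both DKO libraries lay above the control and KO libraries, and DKO differed from KO by 1.08. A gap between DKO and control alone was found for 38.5% of all genes tested. The called identifiers 212427 (0.72 ± 0.07) and 78605 (0.74 ± 0.07), which have no symbol, ranked the 10 libraries in the same order as Hjurp. Whether they share reads with Hjurp was not tested, so Hjurp may not be a separate measurement. Tmem70, a factor for assembly of the mitochondrial ATP synthase, was at 12.4 and 12.9 nRPKM in control, 12.95 and 11.5 in KO and 17.9 and 17.6 in DKO (0.49 ± 0.08, adjusted p = 0.0272). Fam167a went the other way, from 6.54 and 6.32 in control to 4.08 and 4.13 in DKO (-0.64 ± 0.09, adjusted p = 0.0116), below the 7.09 and 8.06 of KO.

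Mab21l2, a developmental gene of the midbrain and eye, was lower in DKO, at 7.53 and 8.48 nRPKM against 14.1 and 13.7 in control and 5.98 and 5.68 in KO (-0.79 ± 0.13, edgeR adjusted p = 0.0268). Acot11, an acyl-CoA thioesterase gene, rose from 1.33 and 1.36 nRPKM in control to 2.33 and 2.95 in DKO, next to 2.75 and 2.67 in KO (0.97 ± 0.13, adjusted p = 0.00633). Prss12, a neuronal serine protease gene, went from 4.98 and 4.88 to 8.32 and 8.0 nRPKM, with 6.98 and 7.24 in KO (0.73 ± 0.08, adjusted p = 0.00176). For these 3 genes the differences between DKO and KO (0.45, -0.05 and 0.19 in that order) did not pass, which does not show equal levels.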
